A study of Mus musculus with 6 samples.

Results

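This account covers 39 genes of muscle excitation, calcium handling, the neuromuscular junction and energy supply in C2C12 cells, a mouse myoblast line, out of 24809 genes to which the deposited transcript table was summed. The members were named gene by gene for these roles, and all 39 symbols were found in the table. RNA was sequenced from cells labelled for Msx1 overexpression (n = 3) and from control cells (n = 3), whose columns carry a vector name in the table. Msx1 encodes a homeodomain factor known from limb mesenchyme as an inhibitor of the muscle programme, and the comparison addresses which transcripts differ in myoblasts with raised Msx1. Both groups are the same line with no other genotype or treatment in the labels. The labels do not say whether the Msx1 cells were 1 clone or a pool, and whether the cells were in growth or differentiation medium at harvest. Nothing says that replicates came from separate cultures, and the p-values therefore reflect only how far these libraries differ, which may be technical spread.

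In skeletal muscle, acetylcholine released by the motor nerve opens receptors that are clustered under the nerve ending. The resulting action potential travels into the transverse tubules, where a voltage-gated calcium channel acts as voltage sensor and opens the ryanodine receptor of the adjoining sarcoplasmic reticulum. Calcium stored there on calsequestrin flows out and triggers contraction, calcium pumps return it, and creatine kinase, glycolysis and myoglobin-bound oxygen supply the energy. Myoblasts hold low levels of most of these transcripts, which are known to accumulate as the cells leave the cell cycle and fuse into myotubes.

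Levels are FPKM, fragments scaled to transcript length and to the mapped fragments of the library, so they can be compared between genes. Changes are differences of log2(FPKM + 1), Msx1 minus control, which understate the change of low genes, with the standard error (SE) and the Benjamini-Hochberg adjusted p of limma, called under 0.05. Total FPKM was 390439 to 401802 in Msx1 and 409664 to 441835 in control libraries, and read numbers are not known. Msx1 itself was at 1004, 944 and 912 FPKM in Msx1 libraries, against 7.99, 7.13 and 7.54 FPKM in control libraries, which fits the labels. Of the genes that set the myoblast lineage, Myod1 was at 20.7, 21.6 and 22 FPKM in Msx1 and 24.2, 22.4 and 23.2 FPKM in control libraries and was not called (log2 change -0.11, SE 0.05, adjusted p = 0.109). Myf5, the other early determination gene, fell to 18.2% of control, with 1.7, 1.53 and 1.7 FPKM in Msx1 libraries, against 8.55, 9.25 and 9.22 FPKM in control libraries (log2 change -1.92, SE 0.07, adjusted p = 2.77e-07). Other myoblast markers went the other way. Pax7 was at 123.5% (adjusted p = 0.0114) and Ncam1 at 195.7% of control (adjusted p = 7.97e-05). Of 9 myoblast markers tested, 2 were called higher and 4 lower. The differentiation gene Myog was at 5.88, 5.78 and 5.58 FPKM in Msx1 and 2.27, 3.2 and 2.81 FPKM in control libraries, higher after Msx1 (log2 change 0.85, SE 0.10, adjusted p = 0.000171). The proliferation gene Mki67 was at 7.63, 7.42 and 6.1 FPKM in Msx1 and 17.2, 19.5 and 18.9 FPKM in control libraries (log2 change -1.28, SE 0.09, adjusted p = 1.02e-05). Of 17 tested differentiation markers 14 were called higher and 0 lower, and their summed level was 160 to 176 FPKM in Msx1 and 49.6 to 55.2 FPKM in control libraries. All 20 proliferation markers tested were called lower, with summed levels of 282 to 301 FPKM in Msx1 and 548 to 623 FPKM in control libraries. The part of differentiation stage or proliferation in the results that follow was not tested, and stage and Msx1 cannot be told apart in this design.

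Among the 39 members, 26 were tested because their mean over all libraries was 0.5 FPKM or more, and 13 fell short. Of the 26 tested, 15 were called higher after Msx1, 5 lower and 6 neither way. Over all 12371 genes tested, 22.0% were called higher and 32.4% lower (54.4% either way). Under median-of-ratios scaling, members split into 17 higher and 4 lower and all genes into 3321 higher and 3154 lower, in place of 2718 and 4014, and with equal totals without Msx1 they split into 18 and 4, and 3503 and 2807. The median change was 0.29 over the tested members and -0.07 over all genes tested. These counts and the members' median carry a bias, because 6 of the 15 higher members (Casq1, Casq2, Cav3, Atp2a1, Dok7 and Mb) reached the minimum only through the Msx1 libraries and had to differ, while no member reached it only through control. Among the 20 members with both group means at 0.5 FPKM or more, 9 were higher, 5 lower and 6 not called, with a median change of 0.20. Just inside the minimum lay Cav3, at 0.553 FPKM on average, and just outside it Ryr3 at 0.435 FPKM. Groups did not overlap for 21 of the 26 members, 16 with Msx1 above and 5 with Msx1 below. Of all genes tested, 62.3% did not overlap, 25.5% with Msx1 above and 36.8% with Msx1 below. In RNA from whole cultures, fewer cells of a type and less RNA per cell cannot be told apart.

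**Figure D1:**
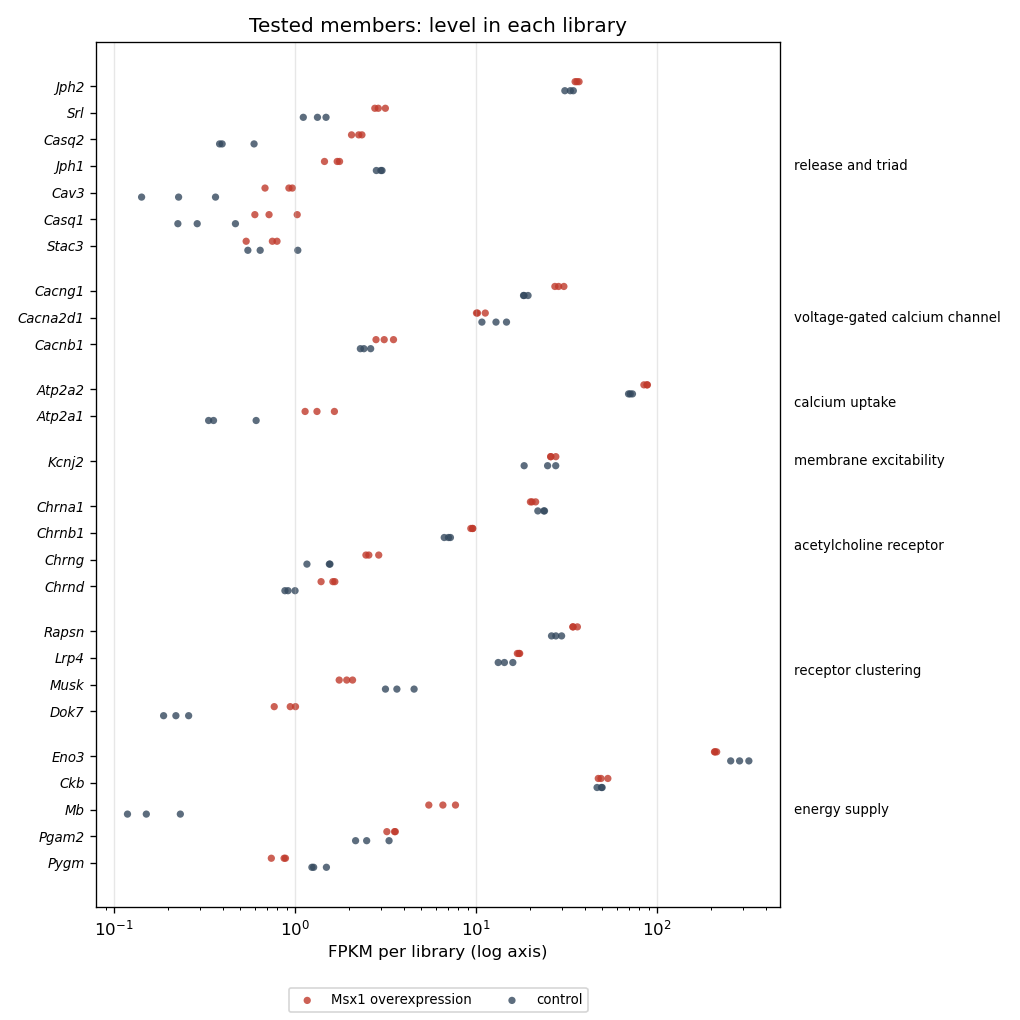
Level of each of the 26 tested members in each library (FPKM, log axis), with the 3 Msx1 libraries above the 3 control libraries in each row and rows grouped by role. Mb stands farthest apart, at 5.5 to 7.72 FPKM in Msx1 and 0.119 to 0.233 FPKM in control libraries, while Eno3, the most abundant member, is lower in all 3 Msx1 libraries.

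Calcium release and storage genes differed in both directions. Of 10 genes of the triad, the junction between tubule and reticulum, 7 were tested, of which 4 were called higher, 1 lower and 2 neither way. Of the higher ones, Casq1, Casq2 and Cav3 reached the minimum only through the Msx1 libraries and had to differ. Of all genes tested, 22.0% were called higher and 32.4% lower. Casq2, the cardiac and slow-muscle form of the calcium store calsequestrin, was at 2.25, 2.06 and 2.35 FPKM in Msx1 libraries, against 0.397, 0.384 and 0.596 FPKM in control libraries (log2 change 1.14, SE 0.09, adjusted p = 1.66e-05). The 3 Msx1 libraries all stood above the control libraries, and the group mean was 4.84 times that of control. Casq1, the fast-muscle form, was at 0.602, 0.721 and 1.03 FPKM in Msx1 libraries, against 0.226, 0.47 and 0.289 FPKM in control libraries (log2 change 0.42, SE 0.11, adjusted p = 0.0148), again without overlap. Sarcalumenin, a calcium-binding glycoprotein of the reticulum encoded by Srl, was at 3.17, 2.89 and 2.77 FPKM in Msx1 libraries, against 1.11, 1.49 and 1.33 FPKM in control libraries (log2 change 0.77, SE 0.08, adjusted p = 0.000149). In Msx1 replicate 1 most of the Srl level, 65.0%, was assigned to a transcript model that held 2.15% and 2.22% in the other Msx1 libraries, and with the most abundant transcript alone the call was lost (log2 change 0.50, adjusted p = 0.123). Cav3, the caveolin of the muscle membrane and of developing tubules, was at 0.685, 0.928 and 0.969 FPKM in Msx1 libraries, against 0.228, 0.365 and 0.142 FPKM in control libraries (log2 change 0.58, SE 0.10, adjusted p = 0.00176). The Casq2 level lay on 1 transcript model in the Msx1 libraries and control replicate 1, and on another in control replicates 2 and 3, and the values here are their sums.

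The junctophilins, which tie the tubule to the reticulum, did not move together. Jph1, the form that predominates in skeletal muscle, fell to 55.9% of control, with 1.77, 1.72 and 1.46 FPKM in Msx1 libraries, against 3.03, 2.99 and 2.82 FPKM in control libraries (log2 change -0.58, SE 0.07, adjusted p = 0.00035). Jph2, the form best known from heart, was far more abundant at 37.2, 36.2 and 35.4 FPKM in Msx1 libraries, against 34.6, 33.3 and 31.1 FPKM in control libraries and did not pass (log2 change 0.13, SE 0.06, adjusted p = 0.0724), although all Msx1 libraries were above all control libraries. Jph2 passed after median-of-ratios scaling (adjusted p = 0.0175), quantile normalization (0.0317), equal totals without Msx1 (0.00908), with array quality weights (0.000911) and without control replicate 1 (0.0236). Jph1 made up 4.53%, 4.52% and 3.96% of the sum of both in Msx1 libraries, against 8.06%, 8.24% and 8.33% in control libraries. An exact two-sided permutation test of this share gave p = 0.1, and no smaller value is possible with 3 libraries a group. Stac3, an adaptor that binds the voltage sensor, was at 0.797, 0.752 and 0.539 FPKM in Msx1 and 1.04, 0.55 and 0.644 FPKM in control libraries and was not called (log2 change -0.03, SE 0.12, adjusted p = 0.832).

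The ryanodine receptors themselves were scarce. Ryr1, the release channel of adult skeletal muscle, was at 0.106 to 0.145 FPKM in Msx1 and 0.0541 to 0.136 FPKM in control libraries, with overlap. Ryr3, the form found beside it in developing muscle, was at 0.173, 0.235 and 0.279 FPKM in Msx1 libraries, against 0.475, 0.878 and 0.572 FPKM in control libraries, lower in every Msx1 library, with a group mean at 35.7% of control. In the fit without a filter on low values, where 16.5% of genes were called higher and 22.7% lower, Ryr3 was lower (log2 change -0.41, SE 0.09, adjusted p = 0.0149) and Ryr1 was not called (adjusted p = 0.403). Exons of Ryr3 share 916 bases with those of Aven on the opposite strand, and without strand those reads cannot be told apart. Aven averaged 8.06 FPKM in Msx1 and 10.2 FPKM in control libraries. Trdn, the gene of triadin, which anchors calsequestrin at the release channel, was listed at 0 in 5 of the 6 libraries and stayed at 0.00969 FPKM in the other.

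The promoter window of Casq2 is shown because this gene had the largest log2(FPKM + 1) change of the triad. RefSeq windows run from 250 bases before to 50 bases after an annotated start site, on GRCm38.p6, and were found for 28 of the 39 members (33 windows, since 4 genes have more than 1). The sequence was searched for the E-box CANNTG, the motif bound by MyoD family factors, which reads the same on both strands. It was also searched for the homeobox core TAATTG on both strands. At least 1 E-box stood in 27 of 33 member windows (81.8%), against 72.3% of all 32817 windows. The form CAGCTG stood in 19 member windows (57.6%), against 16.3% of all windows. It stood in 6 of 13 windows of members called higher, 4 of 4 of those called lower and 5 of 10 of those not tested. Jph2 and Mb have overlapping windows, in which the same CAGCTG is counted more than once. TAATTG stood in 0 member windows, against 8% of all windows. These are letter matches in a short window and say nothing on binding. E-boxes are in capitals in the Casq2 window (chr3:102086165-102086464, plus strand), 1 CACTTG at -200 and 1 CAACTG at -52 relative to the start site.
Casq2: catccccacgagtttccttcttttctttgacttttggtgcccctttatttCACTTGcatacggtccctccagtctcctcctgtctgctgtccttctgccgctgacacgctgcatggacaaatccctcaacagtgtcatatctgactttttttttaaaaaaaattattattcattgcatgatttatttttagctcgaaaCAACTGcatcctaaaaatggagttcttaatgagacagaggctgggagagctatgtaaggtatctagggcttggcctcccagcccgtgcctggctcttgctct

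**Figure D2:**
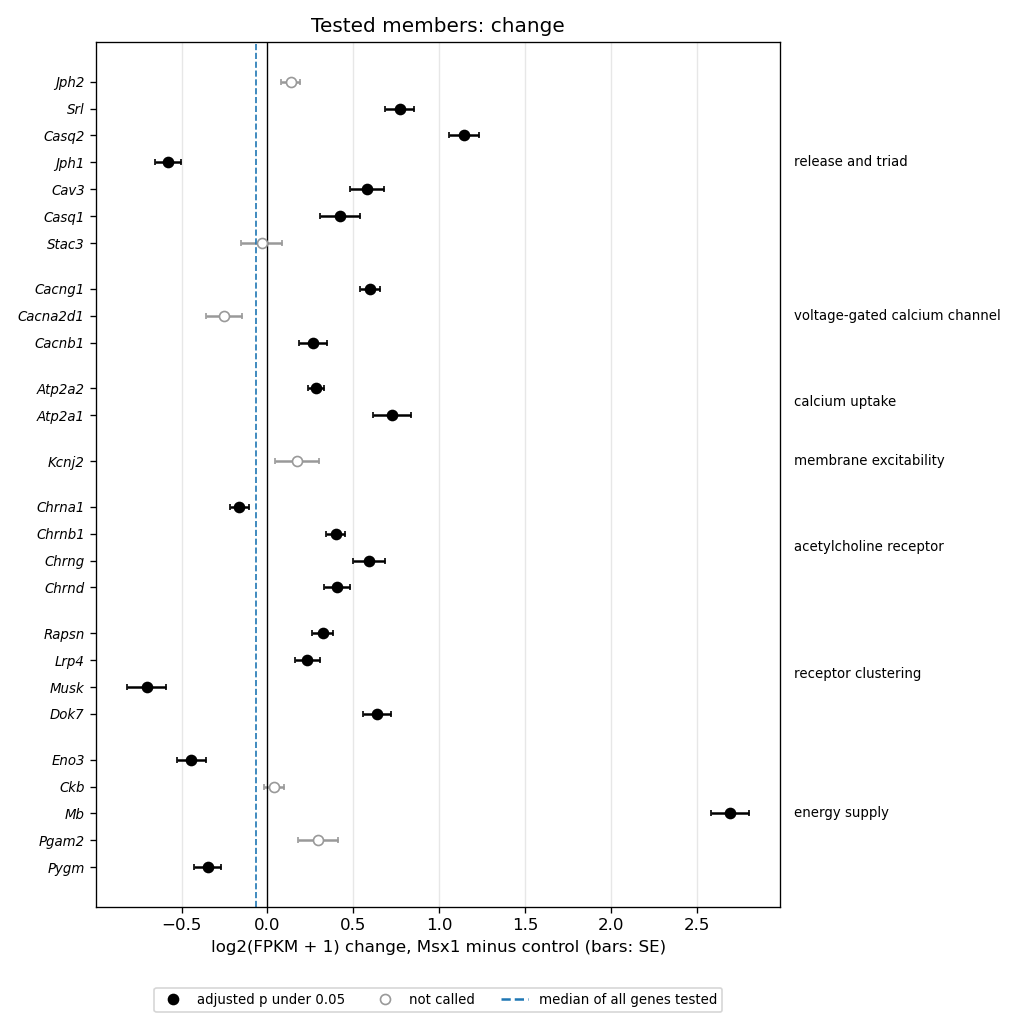
Change of each tested member on the log2(FPKM + 1) scale, Msx1 minus control, with SE bars, filled where the adjusted p was under 0.05. Mb (2.69) and Casq2 (1.14) exceed 1, Musk (-0.70) and Jph1 (-0.58) lie lowest, and the dashed line marks the median of all genes tested (-0.07). The Chrna1 call (-0.16) was lost under all 3 other scalings.

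Of 5 subunit genes of the voltage-gated calcium channel, 3 were tested. Of these, 2 were called higher and 1 neither way, against 22.0% higher and 32.4% lower of all genes tested. The clearest change was in Cacng1, the gamma subunit of the skeletal channel. It was at 27.4, 28.7 and 30.7 FPKM in Msx1 libraries, against 18.4, 18.5 and 19.4 FPKM in control libraries (log2 change 0.60, SE 0.06, adjusted p = 7.68e-05), and the Msx1 libraries all stood above the control libraries. This was the most abundant of the 5 channel members and held its call in all 17 alternative settings. Cacnb1, the beta subunit needed to bring the channel to the triad, was at 2.81, 3.51 and 3.12 FPKM in Msx1 libraries, against 2.3, 2.62 and 2.41 FPKM in control libraries (log2 change 0.26, SE 0.08, adjusted p = 0.028). That call was lost without a filter on low values (adjusted p = 0.0537), and without Msx1 replicate 2 (0.102), Msx1 replicate 3 (0.0675), control replicate 1 (0.0639) or control replicate 3 (0.077). The most abundant Cacnb1 transcript alone gave a log2 change of -0.0033 (adjusted p = 0.992). Cacna2d1, the extracellular alpha-2-delta subunit, was at 10.1, 11.3 and 10.2 FPKM in Msx1 and 10.8, 14.8 and 12.9 FPKM in control libraries, with overlap, and was not called (log2 change -0.25, SE 0.10, adjusted p = 0.0723). Without control replicate 1, its lowest control library, Cacna2d1 was called lower (log2 change -0.36, adjusted p = 0.006), as it was with array quality weights (0.00262).

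Cacna1s, the pore and voltage sensor of the skeletal channel, was just detected. It was at 0.194, 0.217 and 0.307 FPKM in Msx1 libraries, against 0.0141, 0 and 0.0162 FPKM in control libraries, so every Msx1 library stood above every control library, at a level too low for the main test. Its exons share 1309 of 6550 bases with Gm37759 on the opposite strand, which has no value in the table. Without a filter on low values it was called higher (log2 change 0.29, SE 0.04, adjusted p = 0.00134). Cacng6, a gamma subunit gene with known expression in muscle, stayed at or under 0.0357 FPKM.

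Of 4 calcium uptake genes 2 were tested and called higher, against 22.0% higher and 32.4% lower of all genes tested. Of the 2, Atp2a1 reached the minimum only through the Msx1 libraries and had to differ. Atp2a2 encodes the SERCA2 pump of slow muscle, heart and non-muscle cells and was the second most abundant member, at 84.9, 88.2 and 88.8 FPKM in Msx1 libraries, against 71.3, 73.4 and 69.8 FPKM in control libraries (log2 change 0.28, SE 0.05, adjusted p = 0.00149). The rise to 1.22 times control was small, but the groups did not overlap. From 94.5% to 95.1% of its level in Msx1 and 95.1% to 96.6% in control libraries lay on a single transcript model. Atp2a1 encodes SERCA1, the pump of fast fibres, and was at 1.33, 1.14 and 1.66 FPKM in Msx1 libraries, against 0.355, 0.612 and 0.334 FPKM in control libraries (log2 change 0.73, SE 0.11, adjusted p = 0.00095), 3.17 times control by group mean. Exons of Atp2a1 share 763 of 3477 bases with those of Rabep2 on the opposite strand, and Rabep2 averaged 9.84 FPKM in Msx1 and 13.2 FPKM in control libraries. Atp2a1 made up 1.54%, 1.28% and 1.83% of both pumps in Msx1 libraries, against 0.496%, 0.826% and 0.476% in control libraries (exact two-sided permutation p = 0.1). Sln (sarcolipin), an inhibitor of the pumps, was listed at 0 in all 6 libraries, and Pln (phospholamban), another inhibitor, was listed at 0 in the 3 Msx1 libraries and reached at most 0.0338 FPKM in control libraries.

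The Atp2a1 window (chr7:126463024-126463323, minus strand) is shown as the gene with the larger change of the pump pair, with its single E-box, CAGCTG at -55, in capitals. No window was found for Atp2a2.
Atp2a1: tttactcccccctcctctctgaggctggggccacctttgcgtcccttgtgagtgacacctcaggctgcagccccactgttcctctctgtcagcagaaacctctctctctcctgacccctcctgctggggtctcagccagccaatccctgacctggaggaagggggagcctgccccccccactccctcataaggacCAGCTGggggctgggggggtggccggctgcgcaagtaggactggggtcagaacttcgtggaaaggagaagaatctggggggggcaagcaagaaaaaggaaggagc

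Ion channels of the surface membrane were mostly near 0. Kcnj2, the inward rectifier potassium channel that sets the resting potential and is known to act before fusion in human myoblasts, was the exception at 25.9, 27.7 and 26 FPKM in Msx1 and 18.5, 27.6 and 24.9 FPKM in control libraries and was not called (log2 change 0.17, SE 0.13, adjusted p = 0.286). Its low control value came from control replicate 1, and the other control libraries lay within or near the Msx1 range. The chloride channel gene Clcn1, which steadies the resting membrane of mature fibres, was at 0.0734, 0.071 and 0.0521 FPKM in Msx1 libraries, against 0.204, 0.134 and 0.218 FPKM in control libraries, lower in every Msx1 library. In the fit without a filter Clcn1 was called lower (log2 change -0.15, SE 0.03, adjusted p = 0.0104), and its exons share 445 bases with Fam131b on the opposite strand. Scn4a, the sodium channel of adult muscle, stayed at or under 0.020 FPKM and Kcnj12, another inward rectifier, at or under 0.0521 FPKM.

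**Figure D3:**
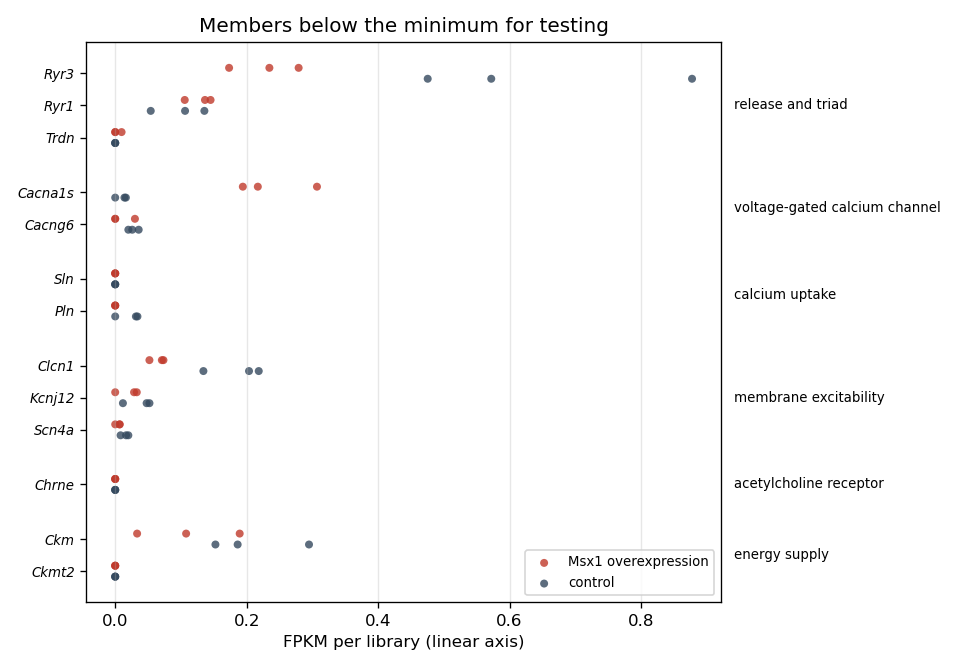
Level of the 13 members below the minimum for testing in each library (FPKM, linear axis), with the 3 Msx1 libraries above the 3 control libraries in each row. Ryr3 and Clcn1 lie lower and Cacna1s higher in all Msx1 libraries, and Sln, Chrne and Ckmt2 are listed at 0 in all 6.

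Of 5 subunit genes of the muscle acetylcholine receptor 4 were tested. Chrng, Chrnd and Chrnb1 were called higher and Chrna1 lower, the last not under other scalings. The shares over all genes tested were 22.0% higher and 32.4% lower. Chrng, the gamma subunit of the embryonic receptor, was at 2.56, 2.91 and 2.47 FPKM in Msx1 libraries, against 1.17, 1.55 and 1.56 FPKM in control libraries (log2 change 0.59, SE 0.09, adjusted p = 0.00103). Its level was 1.85 times that of control. Chrnd, the delta subunit gene, was at 1.4, 1.66 and 1.62 FPKM in Msx1 libraries, against 0.917, 1.0 and 0.882 FPKM in control libraries (log2 change 0.40, SE 0.08, adjusted p = 0.00264). Chrnb1, the beta subunit gene, was at 9.6, 9.62 and 9.39 FPKM in Msx1 libraries, against 7.06, 7.24 and 6.69 FPKM in control libraries (log2 change 0.40, SE 0.06, adjusted p = 0.000599). All 3 genes had Msx1 libraries above every control library, and Chrnd and Chrng are neighbours on chromosome 1, 5.7 kb apart (GRCm38). Chrna1, the subunit with the main acetylcholine-binding sites, was the most abundant at 20.4, 20.0 and 21.4 FPKM in Msx1 libraries, against 22, 23.8 and 24 FPKM in control libraries. It was called slightly lower (log2 change -0.16, SE 0.06, adjusted p = 0.0363), but lost the call under median-of-ratios scaling (adjusted p = 0.197), quantile normalization (0.096) and equal totals without Msx1 (0.511). The Chrna1 call was also lost with the most abundant transcript per gene (0.0504) and without Msx1 replicate 1 (0.107), Msx1 replicate 2 (0.128), control replicate 2 (0.0836) or control replicate 3 (0.117). Chrne, the epsilon subunit that replaces gamma in adult muscle, was listed at 0 in all 6 libraries, so the gamma subunit gene alone was measured of that pair in both groups. Chrne lies 33.9 kb from Eno3, the most abundant member, on chromosome 11.

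The windows of Chrng and Chrna1 are shown as the subunit with the largest rise and the one called lower, with E-boxes in capitals. The Chrng window (chr1:87205561-87205860, plus strand) held CAGCTG at -155 and -132 and CACATG at -75, and the Chrna1 window (chr2:73580289-73580588, minus strand) held CAGCTG at -92 and -44 and CAGGTG at -73. Both windows thus hold 3 E-boxes, 2 of them CAGCTG.
Chrng: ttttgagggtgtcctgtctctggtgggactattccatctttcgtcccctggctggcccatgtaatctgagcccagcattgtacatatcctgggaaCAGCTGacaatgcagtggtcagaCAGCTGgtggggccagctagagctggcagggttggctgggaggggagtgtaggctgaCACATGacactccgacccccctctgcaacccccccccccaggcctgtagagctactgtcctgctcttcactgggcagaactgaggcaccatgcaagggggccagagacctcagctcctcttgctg
Chrna1: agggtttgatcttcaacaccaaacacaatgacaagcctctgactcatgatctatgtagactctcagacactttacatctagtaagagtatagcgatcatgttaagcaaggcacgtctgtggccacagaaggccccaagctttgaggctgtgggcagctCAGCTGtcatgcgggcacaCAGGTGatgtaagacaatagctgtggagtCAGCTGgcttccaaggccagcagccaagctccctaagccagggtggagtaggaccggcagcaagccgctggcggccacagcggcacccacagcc

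All 4 genes that cluster the receptor were tested, and the kinase moved against its partners. In number, 3 were called higher and 1 lower, against 22.0% higher and 32.4% lower of all genes tested. Musk, the receptor kinase at the centre of the pathway, fell to 50.7% of control, with 1.94, 2.08 and 1.76 FPKM in Msx1 libraries, against 3.17, 3.67 and 4.56 FPKM in control libraries (log2 change -0.70, SE 0.11, adjusted p = 0.00105). The groups did not overlap, and the control libraries were uneven. Its level was split among 6 transcript models in proportions that varied between libraries, and the values here are their sums. Dok7, the adaptor that activates Musk from inside the cell, was at 1.01, 0.77 and 0.944 FPKM in Msx1 libraries, against 0.22, 0.259 and 0.188 FPKM in control libraries (log2 change 0.64, SE 0.08, adjusted p = 0.000317). Rapsn, the scaffold that binds the receptor, was abundant at 34.4, 34.5 and 36.4 FPKM in Msx1 libraries, against 29.8, 27.7 and 26.2 FPKM in control libraries (log2 change 0.32, SE 0.06, adjusted p = 0.00259). Lrp4, the receptor for agrin, was at 17.3, 17.5 and 17 FPKM in Msx1 libraries, against 13.3, 16 and 14.4 FPKM in control libraries (log2 change 0.23, SE 0.07, adjusted p = 0.0238). The Lrp4 call was lost without Msx1 replicate 1 (adjusted p = 0.0697), Msx1 replicate 2 (0.0737), Msx1 replicate 3 (0.0538) or control replicate 3 (0.0686). Dok7 was 4.08 times as high as in control by group mean, against 1.26 times for Rapsn and 1.18 times for Lrp4. Dok7 reached the minimum for testing only through the Msx1 libraries and had to differ.

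The Musk window (chr4:58285712-58286011, plus strand) is shown as that of the tested member with the lowest log2(FPKM + 1) change. It held CATCTG at -177, CACTTG at -100 and CAGCTG at -68, in capitals.
Musk: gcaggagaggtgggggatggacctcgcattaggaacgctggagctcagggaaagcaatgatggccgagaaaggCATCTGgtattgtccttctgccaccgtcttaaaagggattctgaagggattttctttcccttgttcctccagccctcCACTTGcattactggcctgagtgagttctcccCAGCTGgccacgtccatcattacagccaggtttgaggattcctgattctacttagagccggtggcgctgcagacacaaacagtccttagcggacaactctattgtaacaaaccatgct

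Of 7 energy supply members 5 were tested, of which 1 was called higher, 2 lower and 2 neither way. The shares over all genes tested were 22.0% higher and 32.4% lower. Mb, myoglobin, the oxygen-binding protein of slow and cardiac muscle (chromosome 15, 77015487 to 77050668, GRCm38), was at 6.58, 5.5 and 7.72 FPKM in Msx1 libraries, against 0.119, 0.233 and 0.151 FPKM in control libraries (log2 change 2.69, SE 0.11, adjusted p = 7.42e-07). The group mean was 39.3 times that of control, and no value of either group came near the other. Mb reached the minimum for testing only through the Msx1 libraries and had to differ. Of 3 Mb transcript models, the one with a distal start site was listed at 0 in all 6 libraries. The other models share a proximal start site, that of the window printed here, and nearly all of the level lay on 1 of them, with 5.8, 5.5 and 7.72 FPKM in Msx1 and 0.119, 0.233 and 0.151 FPKM in control libraries. Exons of Mb overlap those of Apol6 on the opposite strand by 64 of 1492 bases, and Apol6 averaged 1.31 FPKM in Msx1 and 4.83 FPKM in control libraries, the other direction. Mb exons also share 412 bases with Gm49540 on the opposite strand, for which no level was listed. Without strand those reads cannot be told apart.

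That Mb window (chr15:77022738-77023037, minus strand, 0 bases from the GENCODE start of the expressed model) is shown because it belongs to the largest log2(FPKM + 1) change. E-boxes in capitals are CAGCTG at -133, CACTTG at -14 and CATGTG at 8.
Mb: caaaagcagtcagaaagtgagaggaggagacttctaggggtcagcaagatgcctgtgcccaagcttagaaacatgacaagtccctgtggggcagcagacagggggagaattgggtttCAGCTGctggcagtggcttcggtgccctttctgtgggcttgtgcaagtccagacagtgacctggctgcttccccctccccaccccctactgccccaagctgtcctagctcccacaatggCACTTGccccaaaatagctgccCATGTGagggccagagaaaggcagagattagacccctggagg

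Glycolytic members did not follow Mb. Eno3, the muscle beta form of the glycolytic enzyme enolase, was at 209.7, 208 and 214 FPKM in Msx1 libraries, against 323, 256 and 287 FPKM in control libraries (log2 change -0.45, SE 0.08, adjusted p = 0.00278), lower in every Msx1 library at 73% of control. Its ubiquitous paralog Eno1 was at 687, 661 and 675 FPKM in Msx1 and 823, 758 and 833 FPKM in control libraries (log2 change -0.25, SE 0.07, adjusted p = 0.0141), and Eno3 made up 23.4%, 24.0% and 24.1% of the sum in Msx1 libraries, against 28.2%, 25.3% and 25.6% in control libraries (exact two-sided permutation p = 0.1). Pygm, the muscle glycogen phosphorylase, was at 0.742, 0.888 and 0.873 FPKM in Msx1 libraries, against 1.27, 1.5 and 1.24 FPKM in control libraries (log2 change -0.35, SE 0.08, adjusted p = 0.00659). Its brain-type paralog Pygb was at 33, 31.2 and 32.7 FPKM in Msx1 and 32.6, 30.6 and 32.9 FPKM in control libraries and was not called (adjusted p = 0.859), so the Pygm share was 2.20%, 2.77% and 2.60% in Msx1 libraries, against 3.75%, 4.66% and 3.65% in control libraries. Pgam2, the muscle phosphoglycerate mutase, was at 3.56, 3.59 and 3.23 FPKM in Msx1 and 3.32, 2.5 and 2.17 FPKM in control libraries, with overlap, and was not called (log2 change 0.30, SE 0.12, adjusted p = 0.0599). Its main paralog Pgam1 was called lower (log2 change -0.44, adjusted p = 0.00167). Pgam2 was called higher under median-of-ratios scaling (adjusted p = 0.0344), equal totals without Msx1 (0.0221), array quality weights (0.000327) and without control replicate 1 (0.00399). The share of Pgam2 in the mutase pair was 1.56%, 1.64% and 1.37% in Msx1 libraries, against 0.983%, 0.880% and 0.723% in control libraries.

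Creatine kinase, which buffers ATP, was present almost wholly in its brain form. Ckb was at 49.2, 47.5 and 53.7 FPKM in Msx1 and 49.5, 46.8 and 49.9 FPKM in control libraries and was not called (log2 change 0.04, SE 0.06, adjusted p = 0.614), except with equal totals without Msx1 (log2 change 0.15, adjusted p = 0.0412). Ckm, the muscle form, was at 0.0333, 0.108 and 0.189 FPKM in Msx1 and 0.186, 0.152 and 0.295 FPKM in control libraries, with overlap, and the mitochondrial form Ckmt2 was listed at 0 in all 6 libraries. Ckm thus stayed under 0.6% of the Ckm and Ckb sum in each library. Of the 12 paralog pairs compared, 8 could be tested, and the share of Atp2a1, Jph1, Pgam2, Eno3 and Pygm gave an exact permutation p = 0.1 (adjusted p = 0.16 over the 8 pairs), below which 3 against 3 libraries cannot go.

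Among tested members, the 4 with a group mean above 3.5 times control (Mb, Casq2, Dok7 and Cav3) had control means under 0.5 FPKM. The 10 members with both group means above 10 FPKM had Msx1 means between 73% (Eno3) and 154% (Cacng1) of control. With a pseudocount of 0.1 in place of 1, the changes of 8 called members grew by over 1.5 times, among them Mb (4.65), Casq2 (2.07), Dok7 (1.64) and Cav3 (1.51), and none of their calls was lost.

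Other genes of the same processes were taken from lists of 205 entries, of which 204 were found and 149 tested. In all, 42 were called higher, 49 lower and 58 neither way, against 22.0% higher and 32.4% lower of all genes tested, with a median change of -0.07. In other calcium handling, 12 of 47 were higher and 13 lower (median -0.02). Store-operated entry was represented by Stim1, the calcium sensor of the reticulum, at 13.8, 14.2 and 13.7 FPKM in Msx1 libraries, against 8.88, 9.79 and 9.55 FPKM in control libraries (log2 change 0.52, adjusted p = 0.000149). Jsrp1, a triad protein that binds the voltage sensor, rose as well (3.98 ± 0.20 FPKM in Msx1 and 2.54 ± 0.548 FPKM in control libraries, SD, n = 3 each, log2 change 0.51), as did the calcium-dependent kinase gene Camk2a (log2 change 0.71). Asph, whose locus also encodes the triad protein junctin, fell by 0.79 on the log2 scale and Cacna1g, a low-voltage calcium channel, by 0.78.

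Of 24 other membrane excitability genes tested, 12 were called higher and 6 lower (median 0.10). Atp1b1, a beta subunit of the sodium-potassium pump, was at 125, 125 and 128 FPKM in Msx1 libraries, against 17.9, 20.5 and 22.1 FPKM in control libraries (log2 change 2.59, adjusted p = 1.14e-07). Kcnk2, a background potassium channel, was at 15.5, 17 and 16.9 FPKM in Msx1 libraries, against 3.79, 3.68 and 3.45 FPKM in control libraries (log2 change 1.91). Gja1 (connexin 43) fell to 44.1% of control and the potassium channel gene Kcnk5 to 47.3%.

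At the neuromuscular junction, 10 of 36 other genes tested were called higher and 9 lower (median -0.05), against 22.0% and 32.4% of all genes. Colq, the collagen tail that anchors acetylcholinesterase at the synapse and binds Musk, was at 5.49, 5.18 and 5.21 FPKM in Msx1 libraries, against 0.333, 0.321 and 0.404 FPKM in control libraries (log2 change 2.22, adjusted p = 1.57e-07). It was 15 times as high as in control, while its partner Musk fell. The control mean of Colq was 0.353 FPKM, so this gene reached the minimum only through the Msx1 libraries and had to differ. The basement membrane genes Col4a2 and Lama5 rose to 3.53 and 3.26 times control. The lowest changes on the log2(FPKM + 1) scale were those of Cd24a (-1.46), the syntrophin gene Sntb2 (-0.80) and the adhesion gene Mcam (-0.56).

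Of 42 other energy supply genes tested, 8 were called higher and 21 lower (median -0.25), against 22.0% and 32.4% of all genes tested. Ldhb, a lactate dehydrogenase subunit, was at 7.43, 5.75 and 6.72 FPKM in Msx1 libraries, against 17.4, 15 and 17.4 FPKM in control libraries (log2 change -1.21, adjusted p = 2.41e-05). Aldoc, an aldolase of glycolysis, fell to 31.1% of control, and Gys1, muscle glycogen synthase, to 52%. The largest rises on the log2(FPKM + 1) scale were in Pfkp, a phosphofructokinase (2.12 times control), the glucose transporter gene Slc2a3 (5.27 times) and Ppargc1a, a coactivator of mitochondrial genes (3.46 times), the last 2 from control means under 0.5 FPKM.

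Markers of other cell types were read beside these results, and since 1 gene can carry a sum, single genes are given beside several of the sums. Cardiac markers summed to 7.54 to 8.20 FPKM in Msx1 and 8.49 to 8.98 FPKM in control libraries, most of it Gata4, which was not called (log2 change -0.06), while Nkx2-5 was lower (-0.39). Myh6, the alpha myosin heavy chain of heart, was at 0.396, 0.321 and 0.309 FPKM in Msx1 libraries, against 0, 0.00444 and 0 FPKM in control libraries, below the minimum, and was higher in the fit without a filter (log2 change 0.42, adjusted p = 0.000122), the same direction as Casq2. Nppa and Nppb, also below the minimum, overlapped between the groups and were not called without a filter. Tbx5 and Hand2 were listed at 0 in all 6 libraries. Neuron and glia markers summed to 3.70 to 4.79 FPKM in Msx1 and 9.04 to 10.5 FPKM in control libraries, with Tubb3 (-1.40) and Syt1 (-0.26) lower and Snap25 and Sox10 listed at 0. Syt1 reached the minimum only through the control libraries. The glial gene S100b (0.44), below the minimum, was higher without a filter, beside the rises of receptor clustering genes.

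Fibroblast markers summed to 556 to 567 FPKM in Msx1 and 695 to 792 FPKM in control libraries, with 2 of 4 tested higher and 2 lower. The lower sum followed Col3a1 (417 ± 8.39 FPKM in Msx1 and 724 ± 46.2 FPKM in control libraries, SD, n = 3 each). The matrix proteoglycan gene Dcn was 17.7 times as high as in control (89.7 ± 5.51 FPKM in Msx1 and 5.07 ± 1.35 FPKM in control libraries) and Dpt, dermatopontin, 102 times (44.3 ± 3.0 FPKM in Msx1 and 0.436 ± 0.0884 FPKM in control libraries). Dpt, counted among the higher fibroblast markers, reached the minimum only through the Msx1 libraries and had to differ. Osteoblast markers summed to 456 to 530.4 FPKM in Msx1 and 859 to 1140 FPKM in control libraries, with 3 of 4 tested higher, 1 lower and Ibsp listed at 0. The lower sum was that of Spp1 (402 ± 37.5 FPKM in Msx1 and 978 ± 139.5 FPKM in control libraries), whereas Alpl, the bone and liver alkaline phosphatase, was 102 times as high as in control (62.3 ± 2.14 FPKM in Msx1 and 0.61 ± 0.246 FPKM in control libraries). Runx2 (0.29) and Bglap (0.47) were higher on the log2 scale.

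Adipocyte markers summed to 16.9 to 17.1 FPKM in Msx1 and 21.0 to 24.1 FPKM in control libraries, with Pparg and Fabp4 lower, and Plin1, Lep and Cidec listed at 0. Fabp4 reached the minimum only through the control libraries and had to differ. Adipoq, below the minimum, was listed at 0 in the control libraries and was higher without a filter (log2 change 0.63). Endothelial markers, none of which reached the minimum, summed to 0.756 to 1.13 FPKM in Msx1 and 0.285 to 0.375 FPKM in control libraries, with Cdh5, Kdr and Vwf higher without a filter. Other endothelial markers went the other way, with Pecam1 at 36.5%, Tek at 37.4% and Tie1 at 20.3% of control by group mean, none of them called. Macrophage markers summed to 1.19 to 1.45 FPKM in Msx1 and 3.07 to 3.65 FPKM in control libraries, with Cd68 lower and Adgre1 and Ptprc listed at 0. Smooth muscle markers summed to 761 to 814 FPKM in Msx1 and 922 to 981 FPKM in control libraries (4 of 5 tested lower). Myoblast markers summed to 310.0 to 313 FPKM in Msx1 and 343 to 356 FPKM in control libraries (2 of 9 tested higher, 4 lower). The part of these cell types in the members' changes was not tested.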

How the data were processed

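The authors deposited 1 table of FPKM per RefSeq transcript for the 6 libraries; per the submitters' processing notes it was made with Trimmomatic, HISAT2 and StringTie on GRCm38 (mm10), with versions and settings not given in the sources used here. Control columns were matched to samples by number. StringTie estimates how reads divide among transcripts, and FPKM carry no absolute amount of RNA. Of 38468 transcripts, 38193 were named from a RefSeq table, 156 from GENCODE and 119 not at all, and FPKM were summed per gene.

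Genes whose mean over the libraries was 0.5 FPKM or more were tested with limma 3.58.1 (R 4.3.3) on log2(FPKM + 1) with a variance trend, checked on simulated data, with Benjamini-Hochberg adjustment. Paralog shares had an exact permutation test. Whole reads were not recovered from low values, so depth is unknown.

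The members, the lists of other genes and markers, and the tests were chosen with earlier results of these data known. Every member was described, in each library where tested or where a group mean reached 0.2 FPKM, and Clcn1, chosen after its values were seen. Of other genes, the 3 largest rises and falls per list were named, beside Msx1, Myod1, Myog, Mki67 and the paralogs of members. Some genes that this rule names are not reported here. Single genes of the marker lists other than Myod1, Myog and Mki67 were chosen after their values were seen. Scaling, pseudocount, filter, variance trend, sample weights, a replicate block, single transcripts and leaving out each library were the alternatives.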

Additional observations from a re-analysis of the deposited data

How the results depend on the processing

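Of the 20 called members, 16 kept their call and direction in every one of up to 17 alternatives, and the exceptions were Srl, Cacnb1, Chrna1 and Lrp4. Counts of called members ranged from 11 to 18 higher and from 4 to 7 lower, each within 1.5 times of the reported 15 and 5, and from 13 to 16 higher and 4 to 6 lower when 1 library was left out. Direction turned for Stac3 with equal totals without Msx1 (0.0166) and array quality weights (0.0604) and between -0.1136 and 0.084 when 1 library was left out, for Ckb with array quality weights (-0.0038) and between -0.0105 and 0.0758 when 1 library was left out, and with the most abundant transcript for Cacna2d1 (0.0378) and Cacnb1 (-0.0033). The cause was not tested. Whether same-numbered libraries pair was not settled. Their correlations of deviations were 0.055, 0.226 and 0.037 over 12371 genes, and those of differently numbered libraries ran from -0.204 to 0.133. Msx1 replicates 1 and 2 correlated best with the control of their own number, and Msx1 replicate 3 with control replicate 1 (0.133). The replicate block gave 16 higher and 6 lower members (all genes 2692 and 4055) by adding Cacna2d1 and Pgam2. Without a known depth, a listed 0 sets no limit on expression.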
